A study of Mus musculus with 12 samples.

Results

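The genes described here are those of the Wnt, Notch and TGF-beta signalling pathways, followed through 4 lists of chimeric peaks from adult mouse forebrain. A chimeric peak is a place on a target RNA where reads joined a small RNA to that target. Members were chosen by gene symbol alone, with no measured value: Wnt, Fzd, Lrp, Apc, Axin, Ctnn, Dvl, Notch, Dll, Jag, Bmp, Smad, Tgfb and Acvr symbols. The rule found 69 of the 11356 genes named in the lists, with 6 of 766 peaks in the excitatory list, 27 of 3611 in the list of forebrain replicates 5 to 7 (reps 5-7), 2582 of 246180 in the list of forebrain replicates 1 to 4 (reps 1-4) and 0 of 10 in the IgG list. RefSeq holds 109 symbols that match, of which 105 are protein-coding, and 36 of these had no peak in any list. The symbols take in relatives with other main roles, such as the endocytic receptors Lrp1 and Lrp1b and the junction proteins Ctnna2 and Ctnnd2, so the label is broader than the signalling pathways in the strict sense.

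All 12 libraries came from forebrain of C57BL/6 mice. The excitatory list was made with an anti-myc antibody from 3 libraries, reps 5-7 and reps 1-4 with anti-Ago2 from 3 and 4 libraries, and IgG with a control antibody from 2 libraries. The tagged Ago2 (tAgo2) came from a cross of a Camk2a-Cre/ERT2 line, whose promoter is active in forebrain excitatory neurons, with a ROSA26 CAG-GFP/Eif2c2 line. Tamoxifen (2 mg, intraperitoneal) was given daily on 5 days, and tissue was taken 14 to 21 days after the last dose, at 10 to 12 weeks of age. This text stands with every sample, and it does not say whether the animals used for anti-Ago2 and IgG carried the transgenes or received tamoxifen. Homogenates were irradiated with ultraviolet light in 3 rounds before immunoprecipitation, and small RNAs were then ligated to their targets.

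Each list pools its libraries, so it is 1 observation with no replicate spread, and the tests below compare lists and not conditions. Intervals are 95% Wilson intervals and, like the tests, cover counting error only, since reads were amplified without molecular identifiers. The protocol gives 61000000 to 138000000 reads per sample. The summaries of the excitatory and reps 5-7 lists name the same 3 library numbers, whose meaning is not stated, so these lists may share material. Of 7 markers of excitatory neurons only Camk2a had excitatory-list peaks (14 peaks, 1.83% of the list, against 0.265% for all 7 markers in reps 1-4), while Slc17a7 and Nrgn, for example, had none. No marker of inhibitory neurons, astrocytes or vascular cells had a peak in the excitatory list. In tissue lists, more peaks on a gene can reflect more target RNA per cell, more cells of a type, or more small RNA bound, and these cannot be told apart here.

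Wnt ligands bind Frizzled receptors with the co-receptors Lrp5 and Lrp6, act through Dishevelled, and keep β-catenin (Ctnnb1) from being marked for degradation by a complex built on Apc and Axin. Notch receptors are cleaved after binding Delta-like or Jagged ligands on a neighbouring cell, and the released part acts in the nucleus. TGF-beta, activin and BMP ligands bring together type I and type II receptor kinases that phosphorylate Smad proteins. In brain these pathways are known for roles in neurogenesis, axon growth and synapses. A miRNA guides Argonaute to targets mainly through its seed, bases 2 to 8, which pair with the target.

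The miRNAs that carried most of the recurring or highest-scoring peaks on these genes are printed so that their seeds can be compared. They are mature sequences from RefSeq (GRCm38.p6), written 5′ to 3′ with the seed in capitals.
let-7a-5p: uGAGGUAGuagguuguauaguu
let-7c-5p: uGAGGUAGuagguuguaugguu
let-7e-5p: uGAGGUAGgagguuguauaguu
miR-29a-3p: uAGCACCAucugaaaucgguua
miR-29b-3p: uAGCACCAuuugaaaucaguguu
miR-9-5p: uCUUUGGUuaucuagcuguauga
miR-26a-5p: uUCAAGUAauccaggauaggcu
The 3 let-7 miRNAs share 1 seed and the 2 miR-29 miRNAs share another, so a place that pairs with the seed could be joined to any of them. miR-124-3p, a miRNA abundant in neurons, is given by name. Of the 131 small RNA names on members in reps 1-4, 114 matched a RefSeq mature sequence.

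Inside a RefSeq promoter window lay 3 member peaks. The site of the peak with a seed match and that of the higher-scoring peak without one are shown. The first lies in an intron of Ctnna2 at chr6:77605125-77605143 (minus strand, GRCm38.p6), where reps 1-4 held a miR-29a-3p peak of score 6. The other lies in the CDS of Ctnnd2 at chr15:30683350-30683371 (plus strand, GRCm38.p6), under a miR-181a-5p peak of score 41. The letters that pair with the miR-29 seed are in capitals.
Ctnna2 intron site: tttgtgctTGGTGCTcttg
Ctnnd2 CDS site: accgacagctgcagtattgtgc
For miR-29 the motif searched was TGGTGCT, on the strand of the target and within 7 bases of a peak, wherever a reps 1-4 peak of any gene fell inside a RefSeq promoter window. It was found at 10 of 29 such peaks of miR-29 miRNAs and at 0 of 200 of other small RNAs. It occurs in 2.60% of all 32851 promoter windows on their own strand. The matching motif of the miR-181 seed, TGAATGT, was found at 0 of 3 such peaks of miR-181 miRNAs and 0 of 226 others, and occurs in 1.63% of windows. A miR-181b-5p peak of score 15 at the same Ctnnd2 place had no match either. The match is a description of letters and was not tested as a working site.

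Members made up 0.783% of excitatory peaks (0.359 to 1.70%), 0.748% of reps 5-7 peaks (0.514 to 1.09%) and 1.05% of reps 1-4 peaks (1.01 to 1.09%). The interval of the excitatory list spans the value of reps 1-4, so a difference of that size was not detectable with 6 peaks. No member peak in any list overlapped an IgG peak. Each peak has a whole-number score from the authors, with no stated definition and a lowest value of 3. Its median over members was 3 in the excitatory list, 4 in reps 5-7 and 4 in reps 1-4, and the highest were 4, 13 and 147 in the same order of lists.

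In reps 1-4 the median member had 8 peaks, against 5 for all genes with a peak. Of the 69 members, 29 had at least 10 peaks and 16 had 1 or 2. Member peaks fell in introns in 63.0% (61.1 to 64.9%), against 47.6% of all peaks of the list. Ctnnd2, Lrp1b and Ctnna2 alone held 56.9% of member peaks and 1374 of the 1627 intron peaks. They span 857 kb, 2058 kb and 1098 kb of genome, and their intron peaks came to 58.6, 24.2 and 34.0 per 100 kb, against 55.9 in Apc, 40.6 in Ctnnb1 and 38.1 in Acvr2a. Apc, Ctnnb1 and Acvr2a had the next highest values after Ctnnd2, and most shorter members lay far lower, such as Ctnnd1 at 22.3, Bmpr2 at 11.4 and Lrp1 at 6.03. Gene span and the number of intron peaks had a Spearman rho of 0.58 over the 69 members and 0.37 over the 37 with an intron peak, given as a description.

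Among CDS and UTR peaks the members looked more like the rest of the list. The 3' UTR held 471 of 955 (49.3%, 46.2 to 52.5%), against 44.2% over all genes, and the CDS held 49.7%, against 53.5%. Within 3' UTRs, member peaks lay later: their median position was 0.556 of the annotated feature, counted from its 5′ end, against 0.469 over all genes. A peak in a CDS was therefore as common on these genes as one in a 3' UTR.

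**Figure D1:**
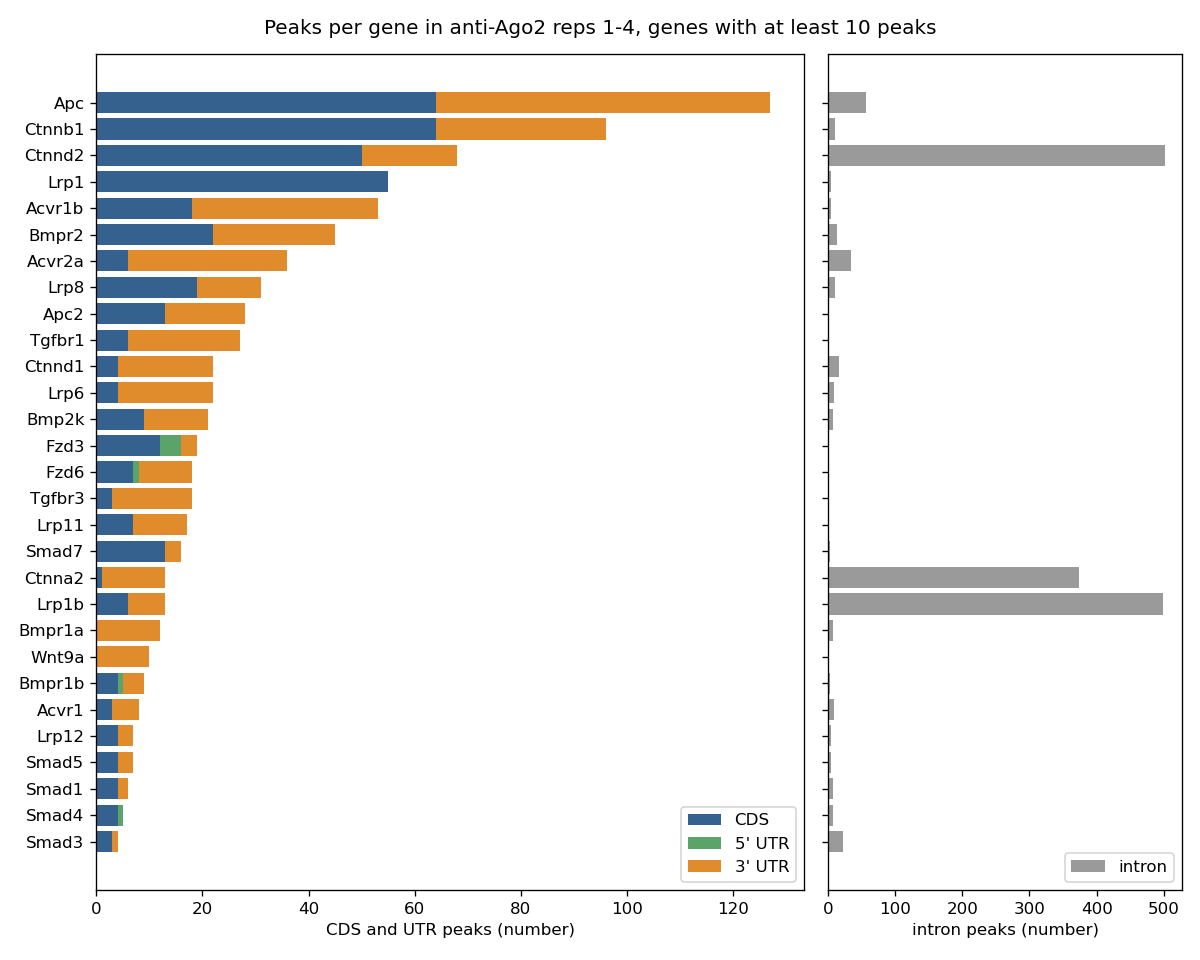
Peaks per gene in reps 1-4 for the 29 members with at least 10 peaks: CDS, 5' UTR and 3' UTR peaks as stacked bars (left, number of peaks) and intron peaks (right, number of peaks, a different scale). Apc and Ctnnb1 lead on the left with 127 and 96 CDS and UTR peaks, and Ctnnd2, Lrp1b and Ctnna2 lead on the right with 502, 499 and 373 intron peaks.

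Of 19 Wnt ligand genes only 2 had a peak, and both were found in reps 1-4 alone. Wnt9a had 10 peaks of 10 small RNAs, all in its 3' UTR, and 8 of them were of let-7 miRNAs. Of the 10, 9 overlapped in a single stretch at chr11:59333389-59333473 (mm10), led by a let-7a-5p peak of score 12. Wnt5a, best known for signalling without β-catenin, had 2 CDS peaks at 1 place, of miR-29a-3p and miR-29c-3p, with a top score of 5. Wnt1, Wnt3 and Wnt7a had no peak in any list.

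Frizzled receptors had peaks on 6 of 10 genes, with 0 in the excitatory list, 3 in reps 5-7 and 49 in reps 1-4, none of them in an intron. Fzd3, a receptor needed for axon guidance, had 0, 1 and 19 peaks in these lists. Its CDS held a miR-124-3p peak of score 136 in reps 1-4 at chr14:65253008-65253014, which was also the place of the reps 5-7 peak (score 6). Fzd6 had 0, 1 and 18 peaks. Of its 18 CDS and UTR peaks 10 carried the miR-26 seed, over 5 places, and the highest was a 3' UTR miR-26a-5p peak of score 113 at chr15:39036674-39036675. Fzd8 had 0, 1 and 7 peaks, led by miR-124-3p in its 3' UTR (score 14 in reps 1-4 and 3 in reps 5-7). Fzd4 (3 peaks), Fzd5 (1) and Fzd7 (1) had scores of 4 at most.

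The Wnt co-receptor Lrp6 had 1 excitatory peak, 1 reps 5-7 peak and 31 reps 1-4 peaks, while its relative Lrp5 had 0, 0 and 1, the last in an intron. The excitatory peak of Lrp6 was of miR-9-5p in the 3' UTR (score 4), and reps 1-4 held it with a score of 55 at chr6:134450418-134450430. The reps 5-7 peak was of miR-124-3p in the same UTR, at chr6:134450499-134450520 (score 5, against 37 in reps 1-4). Of the 22 CDS and UTR peaks of Lrp6 in reps 1-4, 18 were in the 3' UTR.

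The other Lrp genes are mainly endocytic or lipoprotein receptors. Lrp1, which takes up apolipoprotein E and many other ligands, had 1 excitatory, 2 reps 5-7 and 60 reps 1-4 peaks. Its 55 CDS and UTR peaks in reps 1-4 were all in the CDS. Of these, 17 were of let-7 miRNAs and 11 of miR-128-3p. Lrp8, the reelin receptor also called ApoER2, had 0, 2 and 41 peaks, and it carried the highest-scoring member peak of all: miR-9-5p in its 3' UTR, score 147, at chr4:107872664-107872679. A pair of places in or beside the Lrp8 CDS each collected 8 let-7 miRNAs, and the scores of all small RNAs there summed to 357 and 303. Lrp2 had 5 reps 1-4 peaks at 1 place in the 3' UTR, of 5 miR-30 miRNAs, led by miR-30c-5p with a score of 54. Lrp1b, with 0, 1 and 512 peaks, was nearly all intron: 499 of its 512 reps 1-4 peaks and its only reps 5-7 peak. The remaining genes of this class had reps 1-4 peaks alone: 18 on Lrp11, 11 on Lrp12, 8 on Lrp10, 3 on Lrp3 and 2 on Lrp4, with top scores of 4 to 16.

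Apc is the large scaffold of the complex that marks β-catenin for degradation. It had 2 excitatory, 5 reps 5-7 and 184 reps 1-4 peaks, the last of 51 small RNAs. In reps 1-4 its CDS held 64, its 3' UTR 63 and its introns 57. Among the highest Apc peaks were those at the far end of the 3' UTR, where miR-29b-3p reached a score of 129 and miR-29a-3p 98 at chr18:34322069-34322082. The miR-29b-3p peak was found in all 3 lists, with scores of 3 in the excitatory list, 13 in reps 5-7 and 129 in reps 1-4. Its 13 in reps 5-7 was the highest member score there. An Apc intron peak of miR-124-3p scored 116 in reps 1-4 and had no counterpart in the other lists.

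Apc2, a relative expressed in neurons, had 0, 0 and 28 peaks, none in an intron, and 9 of the 28 were of let-7 miRNAs. Axin1, another scaffold of the same complex, had only 3 peaks in reps 1-4, yet 1 of them recurred in every Ago list: miR-124-3p in the 3' UTR, with scores of 3 in the excitatory list, 4 in reps 5-7 and 44 in reps 1-4. Axin2, a target gene of the pathway that feeds back on it, had 5 peaks of 5 small RNAs in reps 1-4 alone. The Dishevelled genes had 17 peaks in reps 1-4 and 0 in the other lists. Dvl2 led with 8 peaks, all in the 3' UTR, the highest of miR-128-3p with a score of 44. Dvl3 followed with 7, and 5 of its 6 CDS and UTR peaks were of let-7 miRNAs, and Dvl1 had 2.

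Ctnnb1, which encodes β-catenin, had 1 excitatory, 6 reps 5-7 and 107 reps 1-4 peaks on a gene of 27.1 kb. It had the most reps 5-7 peaks of any member. Its excitatory peak was of miR-124-3p in the 3' UTR (score 3, against 36 in reps 1-4). In reps 1-4 the CDS held 64 peaks and the 3' UTR 32, led by miR-124-3p (score 101) and miR-92b-3p (score 89), both in the CDS. A miR-29a-3p peak in the 3' UTR, at chr9:120960061-120960071, scored 3 in reps 5-7 and 64 in reps 1-4. Of its 96 CDS and UTR peaks 18 carried the miR-29 seed. One stretch of Ctnnb1, chr9:120955368-120955438, collected peaks of 17 small RNAs, the most of any member site. The annotation calls some of those 17 peaks 3' UTR and others CDS, although the stretch lies well before the end of the gene, so the region label of this site is uncertain.

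**Figure D2:**
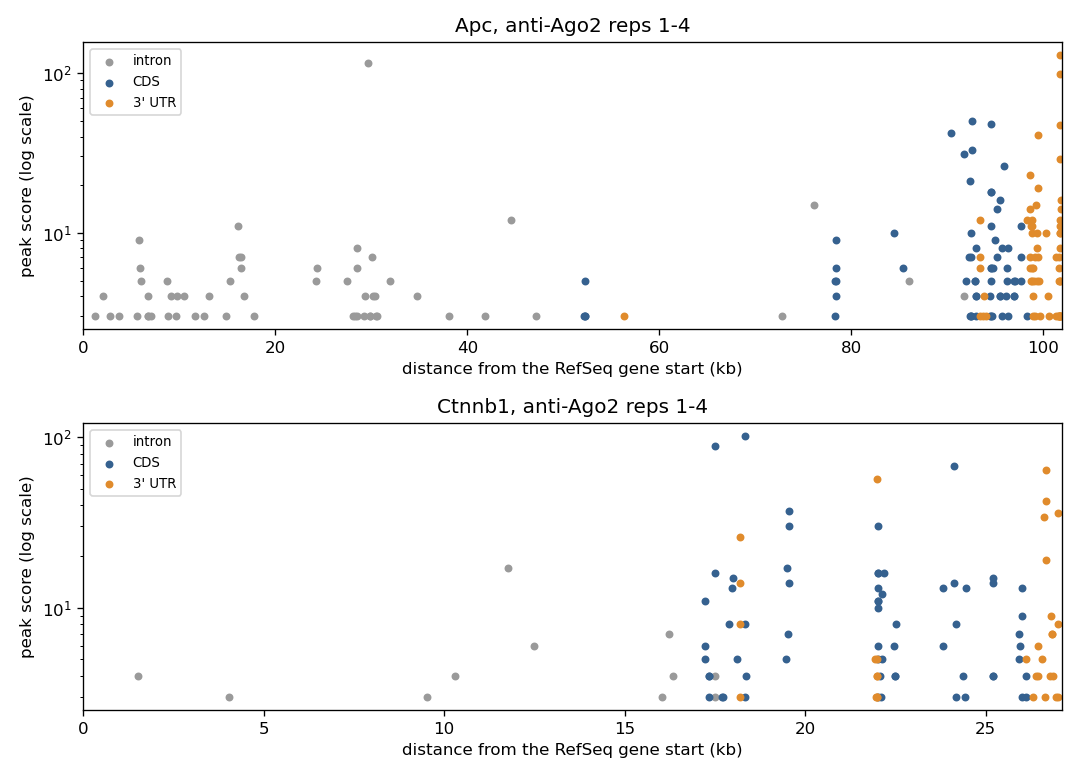
Score of each reps 1-4 peak (log scale) against the distance of its centre from the RefSeq gene start (kb) on Apc and Ctnnb1, coloured by annotated region. On Apc the 3' UTR peaks gather near the end of the gene, where miR-29b-3p scores 129, and on Ctnnb1 the CDS peaks reach a score of 101.

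The other catenin genes join cadherins to the cytoskeleton or regulate them. Ctnnd2, the neuronal δ-catenin, had 0 excitatory, 0 reps 5-7 and 570 reps 1-4 peaks, and Ctnna2, αN-catenin, had 0, 0 and 386. Introns held 502 of the Ctnnd2 peaks and 373 of the Ctnna2 peaks. Ctnnd2 also had 50 CDS peaks, led by miR-124-3p with a score of 73, and a CDS stretch at chr15:30905686-30905755 where 13 small RNAs met, 8 of them let-7 miRNAs. Ctnnd1, p120-catenin, had 0, 3 and 38 peaks. All 3 of its reps 5-7 peaks were in the 3' UTR, of miR-9-5p, miR-29b-3p and miR-124-3p, and all recurred in reps 1-4 with scores of 32, 8 and 35. Ctnnbip1, an inhibitor of β-catenin, had 2 reps 1-4 peaks at 1 place, both with the miR-29 seed. Ctnna1 (7), Ctnnal1 (6) and Ctnnbl1 (2, both intronic) had peaks in reps 1-4 alone.

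The Notch receptor and ligand genes of the symbol rule had few peaks, all in reps 1-4. The 3 receptors with a peak had 15 in all, with 8 on Notch2, 6 on Notch1 and 1 on Notch4, and Notch3 had none. The 4 ligands with a peak had 17, with 8 on Jag2, 4 on Jag1, 3 on Dll1 and 2 on Dll4. Of the 30 CDS and UTR peaks 12 were of miR-124-3p, and 5 of the 8 Notch2 peaks were. The highest scores on these receptors and ligands were 17 (Notch2, miR-9-5p, CDS), 14 (Notch1, miR-9-5p, 3' UTR) and 11 (Jag2, miR-24-3p, CDS). The absence of a peak on these genes allows a share of up to 0.392% in the excitatory list and 0.0831% in reps 5-7, taking 3 peaks as the limit. Low levels there were therefore not detectable. Other genes of the Notch pathway, given below, did have peaks in those lists.

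Of the 11 Bmp genes other than receptors and Bmp2k, 3 had peaks (Bmp3 with 4, Bmp6 with 3 and Bmp7 with 1, all in reps 1-4). Bmp2 and Bmp4 had none. Among the Tgfb symbols Tgfb2, the only TGF-beta ligand with a peak, had 7 in reps 1-4, of which 3 were of miR-9-5p. Tgfb1 and Tgfb3 had none. Tgfb1i1 (3), Tgfbi (1) and Tgfbrap1 (1) are not ligands. Bmp2k, a kinase that carries the symbol but is not a BMP, had 29 reps 1-4 peaks and 0 in the other lists.

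All 12 receptor genes of this superfamily had peaks, with 0 in the excitatory list, 3 in reps 5-7 and 302 in reps 1-4. Of the 227 CDS and UTR peaks in reps 1-4, 158 lay in the 3' UTR (69.6%, 63.3 to 75.2%). The Smad genes, which carry the signal of these receptors, stood the other way: all 8 had peaks, only in reps 1-4, and 10 of their 46 CDS and UTR peaks were in the 3' UTR (21.7%, 12.3 to 35.6%). Over all genes the share was 44.2%. The intervals count stacked peaks as independent, and Smad7 alone held 16 of the 46 Smad peaks, 7 of them at 1 CDS site. The groups were formed with results known, so no test between them is given and the intervals are not one.

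Among type II receptors, Acvr2a (activin) had 0, 0 and 70 peaks and Bmpr2 (BMP) had 0, 2 and 58. Both Bmpr2 peaks of reps 5-7 were of miR-9-5p in the CDS, with scores of 4 and 4, against 71 and 37 in reps 1-4. Bmpr2 was led by a CDS peak of miR-124-3p with a score of 81. Acvr2a was led by miR-29b-3p in the 3' UTR (score 25), and 8 let-7 seed miRNAs met at chr2:48900347-48900390 in the same UTR.

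Among type I receptors, Acvr1b (ALK4) had 0, 1 and 57 peaks, and Tgfbr1 (ALK5) had 0, 0 and 28. The reps 5-7 peak of Acvr1b was of miR-124-3p in the 3' UTR (score 4, against 38 in reps 1-4). Of the 53 CDS and UTR peaks of Acvr1b 20 were of let-7 miRNAs, over 5 places. Bmpr1a (ALK3) had 12 CDS and UTR peaks, all in the 3' UTR, with miR-9-5p at a score of 38. Acvr1c (ALK7) had only 9 peaks, but its miR-124-3p peak in the CDS scored 63. The co-receptor Tgfbr3, betaglycan, had 18 CDS and UTR peaks, 15 in the 3' UTR. Acvrl1 (ALK1), known as a receptor of endothelium, had 2 peaks, and the higher was of miR-126a-3p, a miRNA known from endothelium, with a score of 29. The only Notch4 peak was of the same miRNA (score 3). In all, miR-126a-3p had 18 peaks on 13 members, most of them on other genes, such as 4 on Ctnnd2 (all intronic), 2 on Ctnnb1 and 1 on Ctnnd1 (score 14). The type I receptors Acvr1 (17) and Bmpr1b (12) and the type II receptors Tgfbr2 (8) and Acvr2b (3) completed the receptor genes, all in reps 1-4.

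Smad7, the inhibitory Smad that blocks these receptors, had the most CDS and UTR peaks of its class, 16. Of these 6 were of let-7 miRNAs, all at 1 place in the CDS, and 5 carried the miR-29 seed. Smad5, a Smad of the BMP branch, had 7 CDS and UTR peaks and a miR-124-3p peak of score 53 in its 3' UTR. Smad3, of the TGF-beta and activin branch, had 27 peaks, but 23 were in introns. Smad4, the partner of all receptor-regulated Smads, had 13, of which 8 were in introns, and Smad2 had 5. Smad1 had 13 peaks, Smad6 2 and Smad9 1. No Smad had a peak in the excitatory or reps 5-7 list.

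The most frequent seeds on members were those most frequent over all genes. Of the 955 CDS and UTR peaks, 203 were of miR-124-3p (21.3%, 18.8 to 24.0%, against 21.1% over all genes), 163 carried the let-7 seed (17.1%, against 14.1%), 92 the miR-29 seed (9.63%, against 9.32%) and 74 were of miR-9-5p (7.75%, 6.22 to 9.62%, against 10.0%). miR-124-3p reached 49 members, miR-9-5p 33, and the let-7 and miR-29 seeds 26 each. The grid of genes by small RNAs gives the counts: Apc had 22 miR-124-3p peaks of 127, Lrp1 15 of 55 and Fzd6 2 of 18 beside 6 of miR-26a-5p. Among CDS and UTR peaks alone, 0 of 18 member pairs tested were called (Fisher's exact test over all pairs, lowest adjusted p = 0.355). Over all genes, 2 of 1681 pairs were called higher there and 16 lower. The 0 of 18 is therefore close to the background and is no result about the members.

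**Figure D3:**
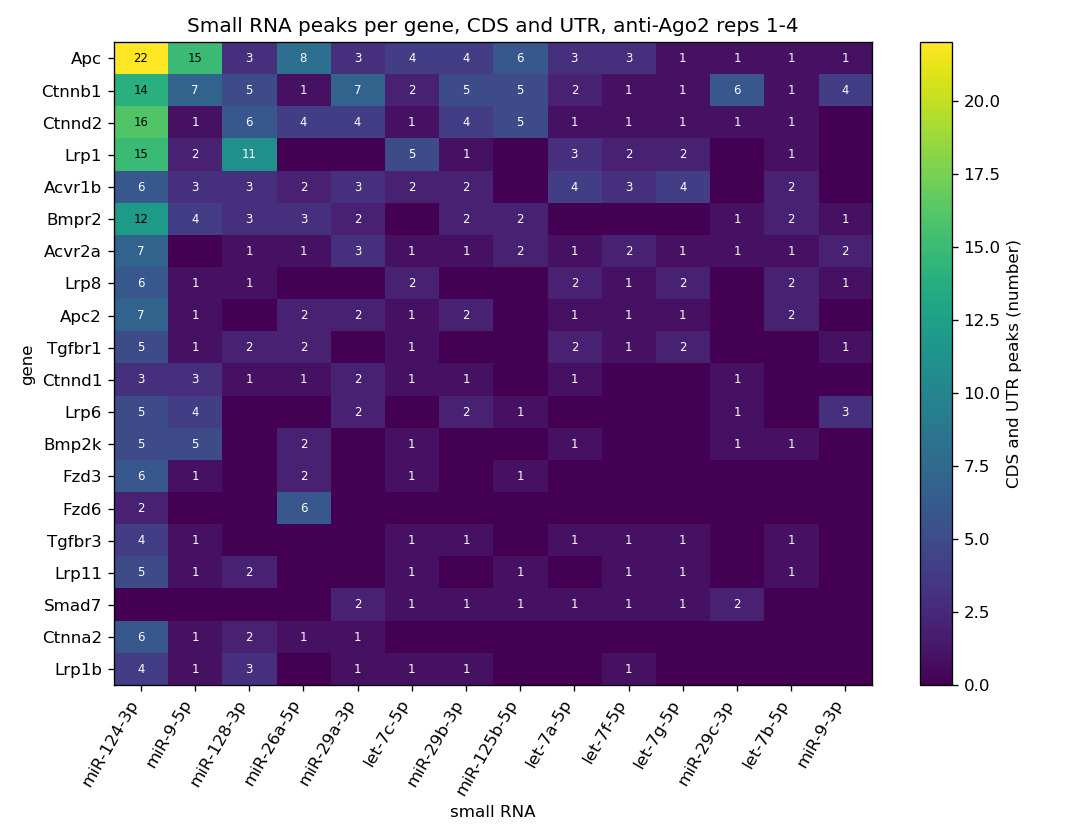
Number of CDS and UTR peaks in reps 1-4 for 20 members (rows) and 14 small RNAs (columns); empty cells are 0. Apc has 22 peaks of miR-124-3p and 15 of miR-9-5p, Lrp1 has 11 of miR-128-3p, and the Smad7 row is empty for miR-124-3p.

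Merging overlapping peaks left 2045 member sites, of which 86.7% held a single small RNA, against 85.3% of all sites, and 1.42% held 5 or more, against 1.79%. Many of the fullest member sites were let-7 sites, such as those of Acvr2a (8 small RNAs of a single seed) and Apc2 (8 of a single seed). Others mixed seeds: the Ctnnb1 stretch above held 11 seeds and the end of the Apc 3' UTR also held 11.

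The share of 3' UTR among a gene's CDS and UTR peaks was tested gene by gene in reps 1-4 against all other genes (a two-sided Fisher's exact test, adjusted by Benjamini-Hochberg over the 3095 genes with at least 10 such peaks). Of the 69 members 22 had enough peaks to be tested, and 9 of these had a higher share, where 24.1% of all genes tested were called higher, and 3 had a lower share, where 23% of all genes were called lower. Calls in both directions were thus common over all genes, and the count of members called is no result about them.

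Acvr2a had 30 of 36 CDS and UTR peaks in the 3' UTR (83.3%, log2 odds ratio 2.57 ± 0.62 SE, adjusted exact p = 2.25e-05). Bmpr1a (12 of 12, adjusted exact p = 3.75e-04) and Wnt9a (10 of 10, adjusted exact p = 0.00133) had no peak elsewhere. Lrp6 and Ctnnd1 each had 18 of 22, Ctnna2 12 of 13, Tgfbr1 21 of 27, Tgfbr3 15 of 18 and Acvr1b 35 of 53, with adjusted p between 0.00179 and 0.00660. On the other side stood Lrp1 with 0 of 55 (adjusted exact p = 9.12e-13), Ctnnd2 with 18 of 68 (adjusted exact p = 0.00947) and Fzd3 with 3 of 19 (adjusted exact p = 0.0400). Ctnnb1, at 32 of 96 (adjusted exact p = 0.0758), and Apc, at 63 of 127 (adjusted exact p = 0.351), did not pass. Ctnnb1 was called lower at or above the median score (24 of 78, adjusted exact p = 0.0368). It was also called lower at a score of at least 10 (8 of 34, adjusted exact p = 0.0461). The region labels limit some of these values: 12 of the 32 Ctnnb1 peaks, 8 of the 63 Apc peaks and 6 of the 7 Lrp1b peaks annotated as 3' UTR lie before the last CDS peak of their gene, and the other 19 members tested had no such peak.

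The test counts stacked peaks as independent. With overlapping peaks merged to sites, Acvr2a (16 of 20 sites, adjusted exact p = 0.00957), Ctnna2 (9 of 10, adjusted exact p = 0.0302) and Lrp1 (0 of 30, adjusted exact p = 2.77e-06) were called. The other 6 members that were still tested then missed the threshold, with adjusted p from 0.0699 for Tgfbr1 to 0.302 for Fzd3, while Bmpr1a, Wnt9a and Tgfbr3 had too few sites.

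**Figure D4:**
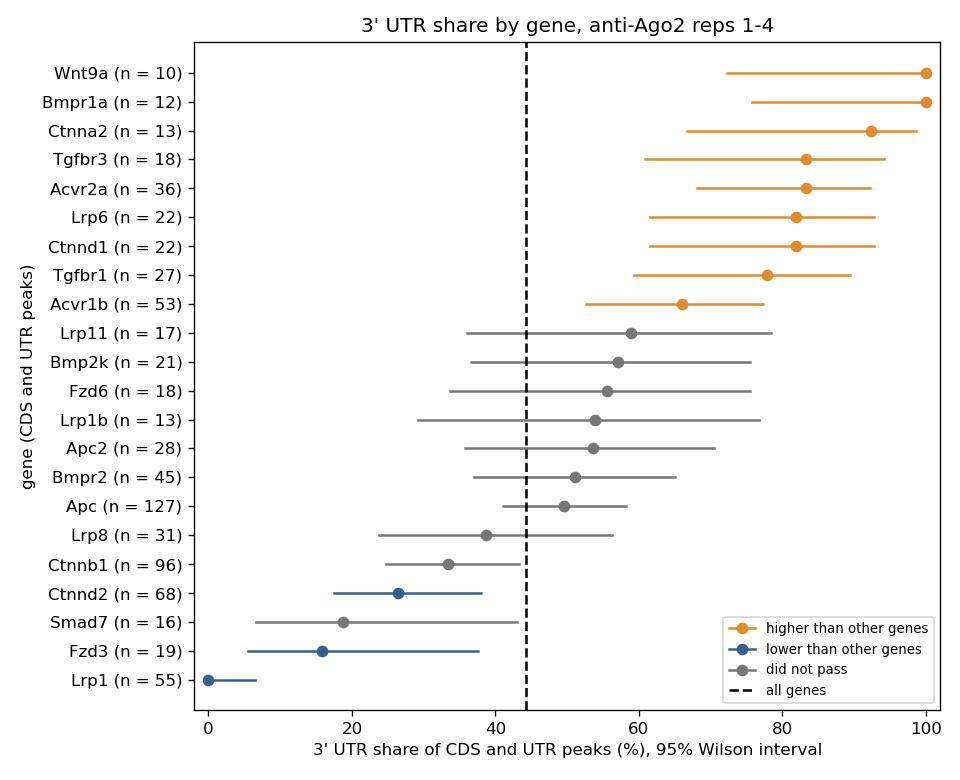
Share of 3' UTR among CDS and UTR peaks in reps 1-4 for the 22 members tested (%, points) with 95% Wilson intervals (lines); the dashed line marks all genes at 44.2%. Bmpr1a and Wnt9a lie at 100% and Lrp1 at 0%.

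Whether excitatory-neuron Ago2 held these targets in other proportions than whole forebrain was asked by comparing each gene's share of peaks. The 6 excitatory peaks were Lrp1 CDS with let-7e-5p, Axin1 3' UTR with miR-124-3p, Apc CDS with miR-124-3p, Apc 3' UTR with miR-29b-3p, Lrp6 3' UTR with miR-9-5p and Ctnnb1 3' UTR with miR-124-3p. Against reps 1-4, 29 of the 69 members had the 10 peaks over both lists needed for a test, and 0 were called higher or lower, and 0 had an unadjusted p under 0.05, where 0.268% of the 4103 genes tested were called higher and 0% lower (Fisher's exact test over all genes). Apc had 2 of 766 peaks in the excitatory list and 184 of 246180 in reps 1-4 (log2 odds ratio 2.12 ± 0.92 SE, adjusted exact p = 1.00). Its share was 0.261% of excitatory peaks and 0.0747% of reps 1-4 peaks. The median log2 odds ratio over all genes tested was 2.97, with 0.5 added to each cell. The excitatory list names only 461 genes, so most genes tested had no peak there and the added 0.5 set their values. Wnt9a, for example, had 3.93 with 0 excitatory and 10 reps 1-4 peaks. The value of Apc therefore cannot be ranked against that median. A member with no excitatory peak may have a share of up to 0.392%, above the reps 1-4 share of every member, of which Ctnnd2 had the highest at 0.232%. No absence from the excitatory list was therefore informative at this depth. Against reps 5-7 no member had the 10 peaks needed for a test, so 0 were called, where 9.38% of the 32 genes tested were called higher and 12.5% lower.

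In reps 5-7 against reps 1-4, 1 of the 29 members tested was lower and 0 were higher, where 0.678% and 0.653% of the 4132 genes tested were called in those directions. Before adjustment, p was under 0.05 for 5 of the 29 (Fisher's exact test). The one called was Ctnnd2, with 0 of 3611 peaks in reps 5-7 and 570 of 246180 in reps 1-4 (adjusted exact p = 0.0466), a share at least 2.79-fold lower when 3 peaks are taken as the limit. Introns held 6.04% of all peaks in reps 5-7 and 47.6% in reps 1-4, and 502 of the 570 Ctnnd2 peaks were intronic. With CDS and UTR peaks alone the adjusted p was 1.00, and the log2 odds ratio was -1.65, against -4.07 with all peaks. The adjusted p missed the threshold in all 6 alternatives tried (0.0577 to 1.00), although the log2 odds ratio stayed between -4.07 and -3.73 in 4 of them and was -3.17 at or above the median score. Ctnnb1 had 6 of 3611 peaks in reps 5-7 and 107 of 246180 in reps 1-4 (adjusted exact p = 0.222). With overlapping peaks merged to sites, Ctnnb1 had 6 sites in reps 5-7 and 51 in reps 1-4 and was called higher (log2 odds ratio 3.17, adjusted exact p = 0.0109).

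The peaks that the small lists held were mostly high-scoring ones in reps 1-4. All 6 excitatory member peaks were found in reps 1-4 with the same small RNA, where 93.1% of all excitatory peaks were. Of the 27 reps 5-7 member peaks 26 were found there (96.3%, 81.7 to 99.3%), where 87.5% of all reps 5-7 peaks were, and the exception was the Lrp1b intron peak of miR-124-3p. Of the 6 excitatory peaks, 3 recurred in reps 5-7: Lrp1 with let-7e-5p, Axin1 with miR-124-3p and Apc with miR-29b-3p. Seen from reps 1-4, the 27 member peaks found again in reps 5-7 had scores of 7 to 147 with a median of 41, and none was annotated as intron in reps 1-4. The 2555 not found again had a median of 4, and 63.7% were intronic.

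**Figure D5:**
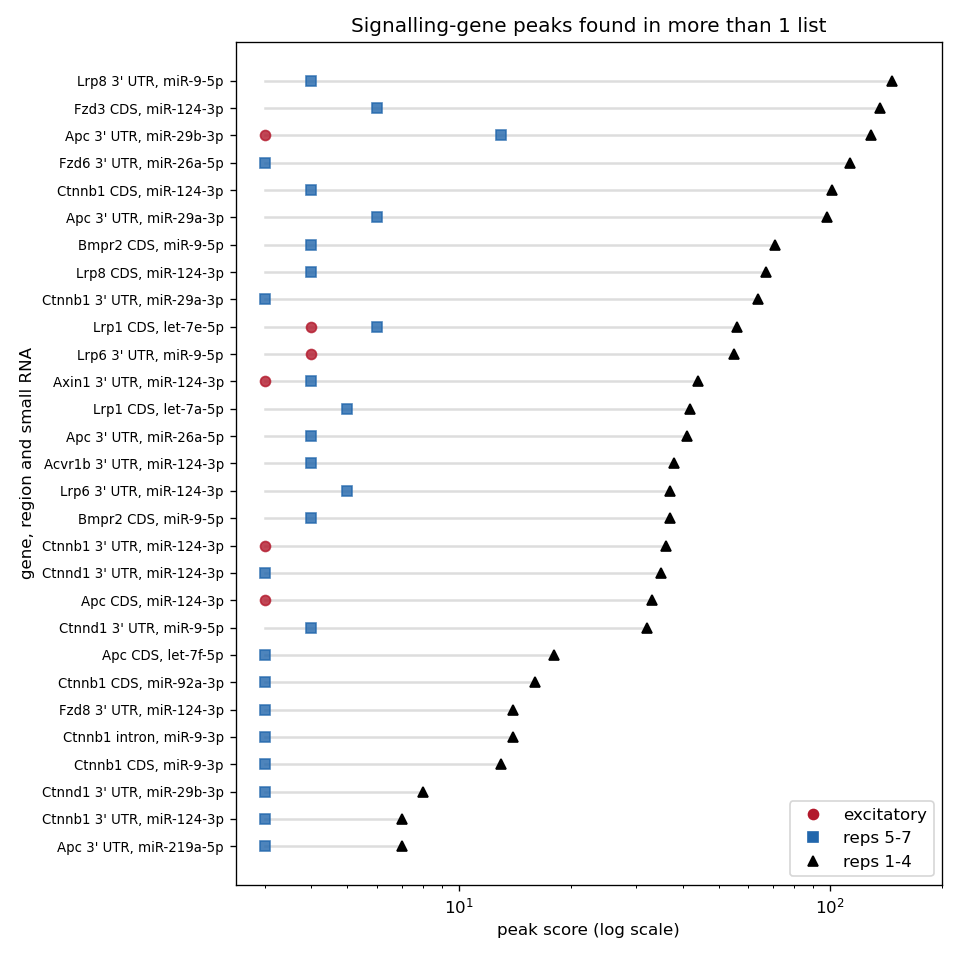
Peak scores (log scale) of the member peaks of the excitatory (circles) and reps 5-7 (squares) lists that overlap a reps 1-4 peak (triangles) of the same small RNA, 1 row per gene, region and small RNA. Scores are 3 to 4 in the excitatory list and 3 to 13 in reps 5-7, and 7 to 147 in reps 1-4.

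Preference of single miRNAs for single genes was tested over 6310 pairs of gene and small RNA in reps 1-4 with an expected count of at least 5 (Fisher's exact test, two-sided, adjusted over all pairs). Of the 80 member pairs, 3 were higher and 1 lower, where 3.09% and 2.41% of all pairs were called in those directions, so the members' counts were close to the background. Ctnnd2 had 208 peaks of miR-124-3p with 168 expected (adjusted exact p = 0.0104), Ctnna2 had 142 with 113 expected (adjusted exact p = 0.0368), and Lrp1b had 79 of miR-9-5p with 54.6 expected (adjusted exact p = 0.0240). miR-124-3p made up 37.2% of member intron peaks, against 20.8% of member CDS peaks, and the peaks of Ctnnd2 and Ctnna2 are mostly intronic. Among intron peaks alone, a setting added after the data were seen, none of the 3 pairs was called. The log2 odds ratio was then 0.033 for Ctnnd2 and -0.077 for Ctnna2 with miR-124-3p, against 0.47 and 0.49 over all peaks. For Lrp1b with miR-9-5p it was 0.52, against 0.62 over all peaks. Smad7 had 0 miR-124-3p peaks of 19, with 5.59 expected from the mix over all peaks (adjusted exact p = 0.0370). Of these 19, 16 were CDS or UTR peaks. Over all genes miR-124-3p made up 21.1% of CDS and UTR peaks and 37.7% of intron peaks. Smad7 had too few peaks to be tested among CDS and UTR peaks alone.

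When miRNAs of 1 seed were merged before this test, 7 of 77 member pairs were higher and 3 lower, where 349 and 284 of all 6845 pairs were. Acvr1b had 20 let-7 peaks with 5.07 expected (adjusted exact p = 4.08e-06) and Lrp1 had 17 with 5.34 expected (adjusted exact p = 5.28e-04). Ctnnb1 had 18 peaks of the miR-29 seed with 8.55 expected (adjusted exact p = 0.0285). Ctnna2 and Ctnnd2 had fewer let-7 peaks than expected, 11 with 34.3 expected (adjusted exact p = 1.99e-04) and 29 with 50.7 expected (adjusted exact p = 0.0148). The expected counts take the mix over all peaks, and let-7 miRNAs were rarer in introns. For example, let-7c-5p made up 1.33% of all intron peaks, against 3.50% of all CDS and UTR peaks. Over all genes, 14.1% of CDS and UTR peaks carried the let-7 seed. On Ctnnd2 8 of 68 did (11.8%), on Ctnna2 0 of 13, on Acvr1b 20 of 53 (37.7%) and on Lrp1 17 of 55 (30.9%). Merged seeds were not tested among CDS and UTR peaks alone. Stacked let-7 miRNAs at a single site count several times when seeds are merged, and the 20 of Acvr1b lie at 5 places.

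Further genes of the 3 pathways, outside the symbol rule, were also covered. Of 55 other Wnt genes 43 had peaks in reps 1-4 (1087 peaks), of 36 other Notch genes 31 (420 peaks), and of 42 other TGF-beta genes 28 (445 peaks). These other Wnt, Notch and TGF-beta genes had 3, 1 and 0 excitatory peaks and 17, 14 and 5 reps 5-7 peaks. For the excitatory list against reps 1-4 the genes tested were 23, 13 and 13, and for reps 5-7 they were 23, 14 and 13. None was called. Over all genes 0.268% were called higher and 0% lower for the excitatory list, and 0.653% and 0.678% for reps 5-7. An unadjusted p was under 0.05 for 1, 1 and 0 of these genes in the excitatory list. In reps 5-7 it was for 1, 2 and 0. In the 3' UTR test, where 24.1% of all genes were called higher and 23% lower, 5 of 20 Wnt genes tested were higher (Gsk3b, Daam1, Prickle2, Tnks2 and Znrf3) and 2 lower (Celsr2 and Csnk1d). Gsk3b, the kinase that phosphorylates β-catenin in the Apc and Axin complex, had 44 of 60 CDS and UTR peaks in the 3' UTR (73.3%, adjusted exact p = 5.72e-05). It also had 6 reps 5-7 peaks, as many as Ctnnb1. Of 7 Notch genes tested Mib1 and Dlk1 were higher and Dner lower. Of 11 TGF-beta genes tested 5 were higher (Ski, Skil, Gdf11, Id4 and Smurf2) and 2 lower (Rgma and Rgmb).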

How the data were processed

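The 4 pooled lists of chimeric peaks used were excitatory, reps 5-7, reps 1-4 and IgG. The deposited score of each peak was computed by the authors, and its definition is not stated. Per the file headers of the calling summaries, peaks were called on mm10 over pooled libraries and miRBase mouse names, with minimums of 3 reads and 2 libraries. The submitters' processing notes name mm10 too. No aligner or peak caller is named: not given in the sources used here. Each peak has 1 region and 1 gene symbol in the annotation.

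Members and lists were chosen with earlier results of these data known. Members were matched by symbol, and tests were run over all genes or pairs and adjusted over all of them (Python 3.11.15, scipy 1.17.1, pandas 2.3.3), with a threshold of 0.05 and at least 10 peaks per gene. Log2 odds ratios add 0.5 to each cell. Peaks counted as found again when peaks of the same small RNA name shared at least 1 base on the same strand. On simulated lists with 200 genes changed 16-fold in odds, the test recovered 21 for excitatory against reps 1-4, 93 for reps 5-7 against reps 1-4 and 198 for the 3' UTR share. False calls were 0, 8 and 8 in the same order. With changes of 4-fold it recovered 3, 28 and 122. Only genes with many peaks were changed, so recovery for genes with few peaks was not measured. Named genes were every member with a peak in the excitatory, reps 5-7 or IgG list, the 3 members with the most CDS and UTR peaks per role and the one with the most peaks, the smallest adjusted p values per test and the 10 highest-scoring peaks; others named were chosen after their values were seen. Results of some marker genes are not reported here.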

Additional observations from a re-analysis of the deposited data

How the results depend on the processing

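No paired analysis was possible because each list pools its libraries, and for the same reason no replicate could be left out. The call of Ctnnd2 as lower in reps 5-7 was the only member call there, and the count was 0 with CDS and UTR peaks alone, at or above the median score, without peaks overlapping IgG, without rRNA peaks, with sites merged and with at least 5 peaks. Merging sites gave 1 member called higher there, with 58 of all genes against 27. For the 3' UTR share, 5 members were tested at a score of at least 10. Of these 0 were higher and 3 lower (Ctnnb1, Ctnnd2 and Lrp1). With sites merged 2 members were higher and 1 lower, and with at least 20 peaks 5 were higher and 2 lower. Over all genes 746 were higher and 712 lower, against 287 and 270 with sites merged. With at least 20 peaks 423 of all genes were higher and 417 lower. At a score of at least 10, 99 of the 447 genes tested were higher and 126 lower. Of member pairs, 0 of 5 were called at a score of at least 10, where 38 of all 467 were higher and 33 lower. With CDS and UTR peaks alone 0 of 18 were called, where 2 of all 1681 were higher and 16 lower. With intron peaks alone 0 of 37 were called, where 31 of all 3128 were higher and 24 lower. These counts of 0 are close to the background and are no result about the members. At or above the median score 0 of 43 were lower, against 1 of 80, which does not show that the call was lost. With seeds merged 7 member pairs were higher and 3 lower, with 349 and 284 of all pairs against 195 and 152. The log2 odds ratio of Ctnna2 with miR-124-3p was -0.077 among intron peaks alone, and that of Ctnnd2 with miR-124-3p was -0.276 at a score of at least 10; the cause was not tested. The member share moved with summed scores to 0.260% in the excitatory list, 0.355% in reps 5-7 and 0.759% in reps 1-4. In reps 1-4 it was 0.919% for CDS and UTR peaks, 1.00% at or above the median score and 0.370% with only Lrp5, Lrp6 and Ctnnb1 kept of the Lrp and Ctnn genes. The intron share of reps 5-7 member peaks was 0% at the median score. In reps 1-4, at the median score, with summed scores and with sites merged, the 3' UTR held 23.7%, 26.3% and 13.4%, the CDS 23.2%, 30.5% and 14.2%, and introns 52.7%, 42.8% and 72.0%. With a reciprocal overlap of 50%, 51.9% of reps 5-7 member peaks were found in reps 1-4. Of the settings tried, 37 moved a main value or count, and 68 left it as it was within 1.5 times or its interval. The 68 include the counts for excitatory against reps 5-7. No member could be tested there except with at least 5 peaks (2 tested), so those counts could hardly change. Depth limits the comparison of the excitatory list, which holds 6 member peaks.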
